A study of Mus musculus with 2 samples.

Results

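Tooth enamel and dentin genes were examined in the fetal mouse mandible through 9 genes: Amelx, Ambn, Enam, Amtn, Odam, Mmp20, Klk4, Sp6 and Dspp. They were found as the probe sets that the platform annotation gives to these symbols, 1 probe set for each gene, among 19938 genes with a probe set of their own. The mandibles came from E18.5 fetuses, counted in embryonic days, on the BALB/c background, 1 array from a wild-type sample and 1 array from a sample of the genotype Myf5-/-:MyoD-/-. The products of Myf5 and MyoD turn precursor cells into skeletal muscle, and the series asks what muscle contributes to the growing lower jaw. How many fetuses were pooled, and their sex, are not given in the sources used here.

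Enamel is laid down by ameloblasts, epithelial cells that first secrete a protein scaffold and later degrade it while the crystals thicken. Amelogenin (Amelx), ameloblastin (Ambn) and enamelin (Enam) form that scaffold, the metalloproteinase Mmp20 trims it during secretion, and the kallikrein Klk4 clears it during maturation. Amelotin (Amtn) and Odam are made mainly by later ameloblasts, Sp6 (epiprofin) is a zinc finger factor of the dental epithelium, and Dspp encodes the main non-collagen protein of dentin, made by odontoblasts of the dental mesenchyme. Before birth the mouse jaw holds incisors and molars at different steps of this sequence.

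All 9 genes gave a signal above the floor on both arrays, and the signal of each was higher in the double knockout, by 0.15 to 0.90 on the log2 scale (1.11-fold to 1.87-fold, median 0.36), as deposited; centred on bone markers, 4 of the 9 were higher. The floor was the median signal of the annotated probe sets, 6.18 for the wild type and 6.19 for the double knockout, and a gene above it on at least 1 array was called measured. Of the 10393 measured genes, 67.0% were higher in the double knockout, and their median difference was 0.10. At least 1.5-fold higher were 3 of the 9 (Sp6, Mmp20 and Dspp), against 3.07% of measured genes, and 0 of the 9 were at least 2-fold higher, against 0.510% of measured genes. Lower members numbered 0, against 5.11% of measured genes lower by 1.5-fold or more and 2.73% lower by 2-fold or more. For scale, the differences of the 2 brightest probe sets of one gene disagreed with an SD of 0.23 over 532 genes. The differences of Amelx (0.15), Odam (0.19) and Klk4 (0.22) were smaller than that. The bone scaling, chosen after seeing the data, set the median difference of the osteoblast markers to 0, which left Sp6 at 0.43, Mmp20 at 0.35, Dspp at 0.34 and Amtn at 0.06, with 0 of the 9 at least 1.5-fold higher. That shift was 0.47, while single osteoblast markers ran from 0.13 to 0.65 and their summed signal was 0.28 higher. The design named a shorter osteoblast set (Bglap, Ibsp, Sp7 and Col1a1), which was not used for the shift. Its measured genes Ibsp (0.22), Sp7 (0.40) and Col1a1 (0.13) each differed by less than 0.47. Alpl (0.55), Dmp1 (0.58) and Phex (0.65), of the longer list used, differed by more. The counts after this scaling therefore depend on the markers chosen, and other osteoblast marker sets were not tried. With 1 array per genotype no test is possible, and in a whole jaw more cells of a type and more RNA per cell cannot be told apart.

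**Figure D1:**
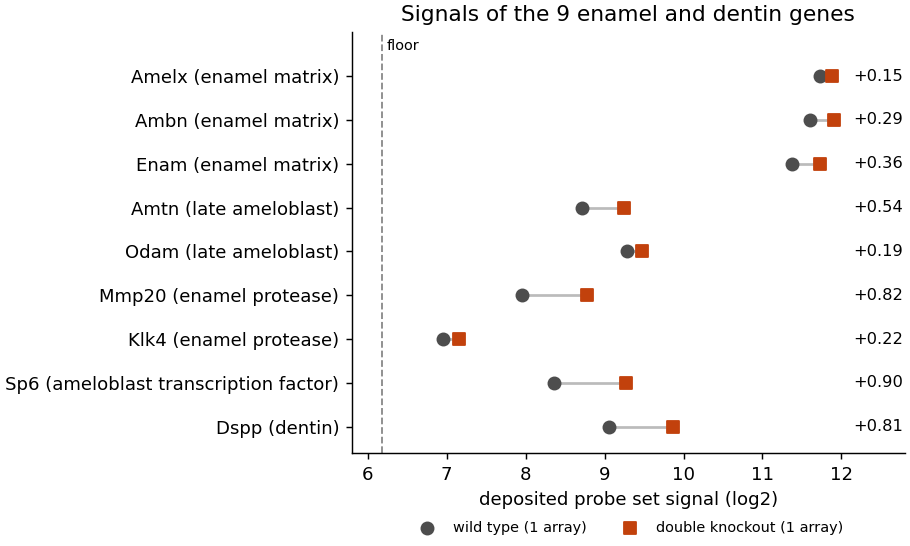
Deposited log2 signal of the 9 genes on the wild-type array (circles) and the double-knockout array (squares), with the difference at the right and the floor dashed. As deposited, each gene lies to the right in the double knockout (4 of the 9 when centred on osteoblast markers), with the widest gaps for Sp6 (0.90), Mmp20 (0.82) and Dspp (0.81); signals of different probe sets have no common scale between genes.

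The enamel matrix genes gave strong signals on both arrays and differed little between them. Amelogenin, the most abundant protein of forming enamel, had a signal of 11.73 in the wild type against 11.88 in the double knockout, a difference of 0.15. Ameloblastin, which attaches ameloblasts to the matrix, had 11.60 and 11.90, a difference of 0.29. Enamelin, the large glycoprotein of the enamel front, had 11.38 and 11.73, a difference of 0.36. All of them lay more than 5 log2 units above the floor, and none was 1.5-fold apart. No spread between mandibles can be given. Among the 138 measured genes with a mean signal of at least 11, the central 90% of differences ran from -0.37 to 0.40, and all of the matrix genes lay inside that range.

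Amelx lies on the X chromosome in the mouse, and markers of sex differed between the arrays. Xist had a signal of 10.87 in the wild type against 10.22 in the double knockout, while the Y-linked Eif2s3y had 2.38 and 6.55. The Y-linked Uty had 2.43 and 6.20, barely above the floor in the double knockout, and Kdm5d was below the floor on both arrays (3.42 and 5.27). The double-knockout array thus had a high Xist signal together with Y-linked signal. The part of fetal sex in the amelogenin value was not tested. Without Amelx the median over the other 8 members was 0.45.

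The later ameloblast genes had unlike differences, each from 1 probe set, and the gap between them was not tested. Amelotin, a protein of the basal lamina that maturing ameloblasts form on enamel, had 8.71 in the wild type against 9.24 in the double knockout, a difference of 0.54 (1.45-fold). Odam, an enamel organ protein also known from glandular epithelia, had 9.29 and 9.48, a difference of 0.19 (1.14-fold). Salivary gland transcripts were far higher in the double-knockout sample. Of 12 markers 10 were measured, all 10 at least 2-fold higher, against 0.510% of all measured genes. Their single signals ran from 4.77 to 11.01 in the wild type against from 8.29 to 12.54 in the double knockout. The summed signal of these 10 was 2.43 log2 units higher. Pip had 7.17 against 11.30, Smgc 8.34 against 11.86 and Bpifa2, the brightest, 9.36 against 12.54. Odam was 0.19 higher beside this, and the part of gland RNA in its signal was not tested.

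The promoters of the enamel matrix and later ameloblast genes are shown because their letters share a feature that the choice of genes did not use. RefSeq promoter sequences on the build GRCm38.p6, each with 250 bases before and 50 after the annotated start, were found for 7 of the 9 genes, all except Sp6 and Dspp. The last 100 bases before the start are chrX:169187210-169187309 on the minus strand for Amelx and, on the plus strand, chr5:88455891-88455990 for Ambn, chr5:88487875-88487974 for Enam, chr5:88376008-88376107 for Amtn and chr5:87884910-87885009 for Odam. Those of the proteases are chr9:7628131-7628230 for Mmp20 and chr7:43881060-43881159 for Klk4, both on the plus strand. Capitals mark TGATTGG, which contains the CCAAT box read from the other strand.
Amelx: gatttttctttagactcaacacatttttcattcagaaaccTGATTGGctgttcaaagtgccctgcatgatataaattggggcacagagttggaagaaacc
Ambn: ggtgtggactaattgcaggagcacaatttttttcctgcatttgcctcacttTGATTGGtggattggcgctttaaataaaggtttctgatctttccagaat
Enam: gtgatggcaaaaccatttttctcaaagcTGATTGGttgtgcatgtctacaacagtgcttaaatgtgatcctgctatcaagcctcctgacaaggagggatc
Amtn: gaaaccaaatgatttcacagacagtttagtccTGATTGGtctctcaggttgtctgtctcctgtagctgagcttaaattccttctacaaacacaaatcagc
Odam: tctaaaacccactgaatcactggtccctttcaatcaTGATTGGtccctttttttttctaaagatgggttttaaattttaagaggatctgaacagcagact
Mmp20: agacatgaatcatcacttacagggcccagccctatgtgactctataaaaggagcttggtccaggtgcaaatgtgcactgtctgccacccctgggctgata
Klk4: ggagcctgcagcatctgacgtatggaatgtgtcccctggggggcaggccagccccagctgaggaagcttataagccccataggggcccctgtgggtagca

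TGATTGG stood once in each of the 5 promoters of Amelx, Ambn, Enam, Amtn and Odam, always on the coding strand, with its first base 60, 49, 72, 68 and 64 bases before the start. It was in neither protease promoter. Over all 32851 promoters of the table, 7.82% held it on either strand of the whole window and 2.33% on the coding strand within the last 100 bases. The motif was read off these sequences after they had been seen, so its presence here is a description. Ambn, Enam, Amtn and Odam lie in 1 cluster of secretory calcium-binding phosphoprotein genes on chromosome 5. Their promoters are therefore not independent, and the count cannot be weighed against the share of all promoters. The differences of the 5 genes that hold it ran from 0.15 to 0.54, and those of the proteases were 0.22 and 0.82, so the ranges overlap.

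**Figure D2:**
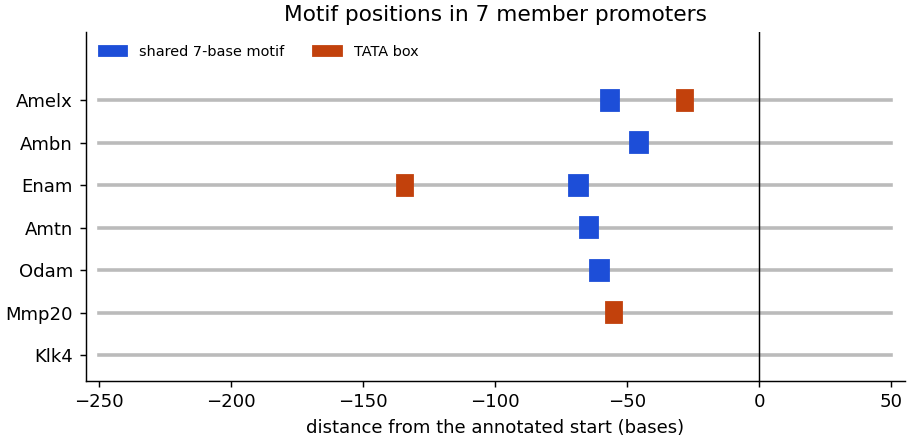
Position of the shared motif and of the letters TATAAA (labelled TATA box) relative to the annotated start (0) in 7 member promoters of 300 bases, with the windows searched as grey lines. The shared motif lies between 72 and 49 bases before the start in 5 promoters, and Mmp20 and Klk4 have none.

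Other textbook motifs were searched on both strands of the same windows. The TATA box letters TATAAA were in 3 of the 7 promoters, 31 bases before the start in Amelx, 58 in Mmp20 and 137 in Enam, against 13.6% of all promoters. These are matches by letters at any position, and variants such as ttataag in the printed Klk4 stretch were not counted. The GC box GGGCGG, a motif of the Sp family to which Sp6 belongs, was in 0 of the 7, against 35.7%. The Runx core TGTGGT was in Odam alone (16.8% of all promoters), and the homeobox core TAATTG in Odam and Ambn (2628 of all promoters).

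The enamel proteases differed unequally. Mmp20, which cleaves amelogenin in secretory-stage enamel, had 7.96 in the wild type against 8.78 in the double knockout, a difference of 0.82 (1.77-fold). Klk4, which takes over in maturation, had 6.95 and 7.16, a difference of 0.22 (1.16-fold). Klk4 was the member closest to the floor, 0.77 above it in the wild type against 0.98 in the double knockout. Mmp20 ranked 105 of 10393 measured genes by difference and Klk4 ranked 2945.

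Klk4 belongs to the kallikrein family, several members of which are made in salivary gland and skin. Of 20 other kallikreins, 16 had a probe set of their own and 6 were measured, with a median of 0.04. Past 1.5-fold was 1 member in each direction, against 3.07% of all measured genes higher and 5.11% lower. The higher member was Klk1b22, at least 2.14-fold (6.11 against 7.28), of the glandular kallikrein group. The lower was Klk14, a skin protease, at least 1.60-fold (6.87 against 5.81). Klk10 had the strongest signal of the family list, 7.48 against 7.72. The Klk4 difference lay between those of Klk1b22 and Klk14, as did those of the 4 other measured kallikreins.

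Sp6 had the largest difference of the 9. Its signal was 8.36 in the wild type against 9.27 in the double knockout, 0.90 higher (1.87-fold), which ranked 72 of 10393. Mice lacking this factor are known to form no enamel. Of 8 other Sp family members, 5 were measured, all higher, with a median of 0.16 and 0 at least 1.5-fold. Over all measured genes 67.0% were higher and 3.07% at least 1.5-fold higher. The largest were Sp7 (osterix), the osteoblast and odontoblast factor, at 0.40 (8.80 against 9.20), and the ubiquitous Sp1 at 0.39 (8.07 against 8.46). The smallest named was Sp3, at 0.15 (9.11 against 9.26), and Sp9 differed by at least 0.16 (6.07 against 6.34), with the wild type below the floor. No other measured Sp gene reached the Sp6 value.

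Dspp, the dentin gene, had 9.06 in the wild type against 9.87 in the double knockout, a difference of 0.81 (1.75-fold) that ranked 110 of 10393. It belongs to the SIBLING family of acidic phosphoproteins, whose genes lie side by side. Its neighbour Dmp1, a matrix protein of odontoblasts and osteocytes, had 9.22 and 9.80, a difference of 0.58. The next gene, bone sialoprotein (Ibsp), had 12.24 and 12.46, a difference of 0.22. Mepe was below the floor on both arrays (4.19 and 4.33), and Spp1 is not analysed here. Sparcl1 on the other flank, named after its value was seen, decreased by 0.23 (10.14 against 9.91). Dspp therefore had the largest difference of the measured SIBLING genes.

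The abundant enamel matrix was then set beside the proteases, late genes, regulator and dentin. The matrix genes had a median difference of 0.29 (0.15 to 0.36) and the 6 others 0.67 (0.19 to 0.90). The groups overlapped: Odam and Klk4 lay within the range of the matrix genes, whereas Amtn, Dspp, Mmp20 and Sp6 were above all of the matrix genes. With the osteoblast markers set to 0, which moves both groups by the same amount, the medians were -0.18 and 0.20. Members are not replicates of a genotype, so no test of this gap was made.

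The matrix probe sets had mean signals above 11 and those of the others lay below 10, and the part of signal strength in the gap was not tested. Between mean signals of 8 and 9, the band of Sp6, Mmp20 and Amtn, the central 90% of differences ran from -0.64 to 0.50, a wider range than in the band of the matrix genes. Within its own band a difference at least as high as that of Enam was found for 6.52% of genes, of Ambn for 10.1% and of Amelx for 29.7%. The same share was 0.633% for Sp6, 1.05% for Mmp20, 1.13% for Dspp and 4.01% for Amtn, but 28.8% for Klk4 and 33.0% for Odam.

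**Figure D3:**
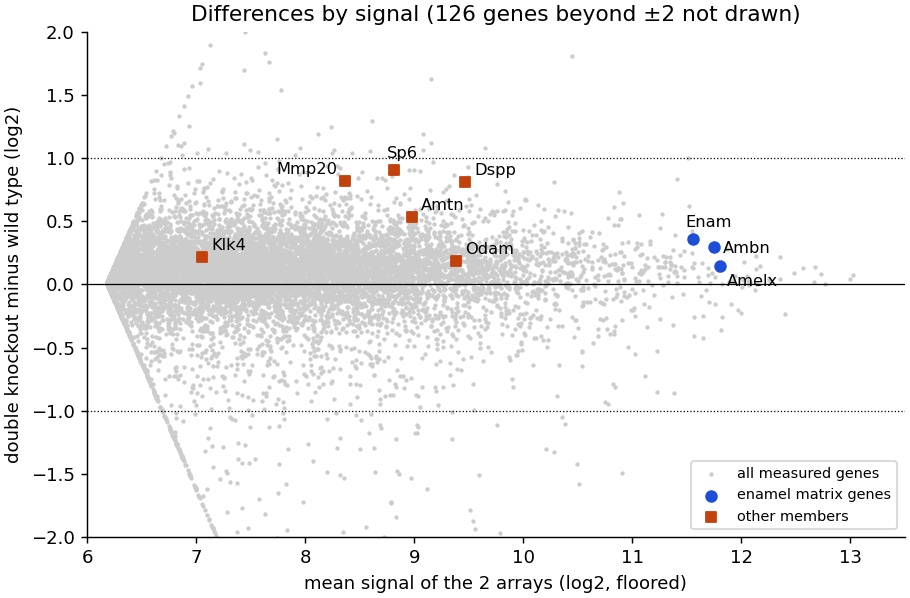
Difference between the arrays (double knockout minus wild type, log2) against mean log2 signal for all 10393 measured genes (grey), with the enamel matrix genes as blue circles and the other members as orange squares; dotted lines mark 2-fold. Sp6, Mmp20 and Dspp sit at the upper edge of the cloud just under the 2-fold line, and Amelx, Odam and Klk4 lie inside it; the 126 genes beyond 2 log2 units are not drawn.

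Position on the chromosome was compared with signal. Odam, Amtn, Ambn and Enam lie on mouse chromosome 5 in a cluster of secretory calcium-binding phosphoprotein genes that also holds the caseins and salivary genes, and the order of genes was taken from RefSeq GRCm38.p6. Of 21 protein-coding genes from Csn1s1 to Mob1b, 20 had a probe set and 7 were measured. These were the 4 enamel genes, Prol1, and on the far flank Grsf1 (9.17 against 9.08) and Mob1b (8.32 against 8.07), both chosen with their values known. The casein genes Csn1s1, Csn2, Csn1s2a, Csn1s2b and Csn3 were all below the floor on both arrays.

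Between Odam and Amtn stood 7 protein-coding genes, 6 of them with a probe set. Below the floor were 5 of these, with signals of at most 3.91 in the wild type against 4.30 in the double knockout. The exception was Prol1, the submandibular proline-rich protein gene next to Amtn, which had 4.77 in the wild type against 10.32 in the double knockout, at least 17.65-fold higher. Its enamel neighbours Amtn, Ambn and Enam differed by 0.54, 0.29 and 0.36. Odam thus stood between genes below the floor, while Prol1, Amtn, Ambn and Enam were measured genes in a row, Prol1 in the double knockout only. The enamel genes did not share the value of the salivary gene beside them. Prol1 has a RefSeq promoter, and TGATTGG is not in its window.

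**Figure D4:**
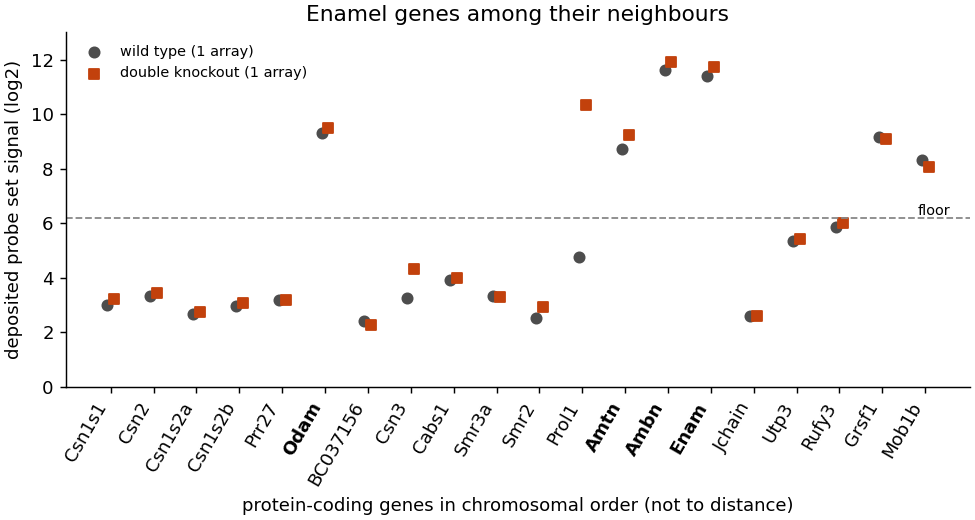
Deposited log2 signals on the wild-type (circles) and double-knockout (squares) array for the 20 protein-coding genes with a probe set from Csn1s1 to Mob1b, in chromosomal order, members in bold. The 4 enamel genes lie above the dashed floor on both arrays, the caseins lie below it, and Prol1 goes from 4.77 to 10.32.

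Other genes of tooth formation were taken from lists. Of 14 measured genes for amelogenesis imperfecta outside the 9 members (inherited enamel defects), 10 were higher and 4 lower, with a median of 0.27. That count is near the share over all measured genes, of which 67.0% were higher. At least 1.5-fold apart was 1 gene in each direction, against 3.07% of all measured genes higher and 5.11% lower. The higher was Dlx3, a homeobox factor of ectodermal organs (8.11 against 8.73, 0.61). The lower was Stim1, the calcium sensor of store-operated entry, which muscle also uses (8.42 against 7.63, -0.79). The integrin subunit Itgb6 decreased by 0.54 (6.89 against 6.35), and Ltbp3, the strongest signal of the list, differed by 0.09. Below the floor on both arrays were 3 genes of maturation and transport, Wdr72, Slc24a4 and Odaph.

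In the dental epithelium list 10 of 13 measured genes were higher, against 67.0% of all measured genes. At least 1.5-fold higher were 3, against 3.07%, and the median was 0.26. The tight junction gene Cldn10, which salivary acini also make, was 1.55 higher (7.01 against 8.55), and its other probe set 1.20 higher. The epithelial signal Shh was 0.71 higher (8.55 against 9.26) and the homeobox factor Msx2 0.67 higher (7.85 against 8.52). Perp, a desmosome gene of ameloblasts and skin, had the strongest signal and differed by 0.43. A further 3 listed genes were below the floor on both arrays.

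All 12 measured dental mesenchyme genes were higher, against 67.0% of all measured genes. Their median was 0.52, and 4 were past 1.5-fold, against 3.07%. The largest were Dlx2 at 0.84 (8.28 against 9.12), Msx1 at 0.78 (7.33 against 8.11) and Dlx1 at 0.74 (6.87 against 7.61), homeobox factors that pattern the tooth germ and also act in jaw mesenchyme. Bmp4, the signal with the brightest probe set of the list, was 0.53 higher (9.11 against 9.65). In the odontoblast and mineralisation list 12 of 13 measured genes were higher, 1 at least 1.5-fold, with a median of 0.26. Phex, a phosphate regulator, was 0.65 higher and Dmp1 0.58, while Col1a1 differed by 0.13. The exception was nestin (Nes), a filament gene of odontoblasts that developing muscle also makes, at -1.48 (9.58 against 8.10).

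**Figure D5:**
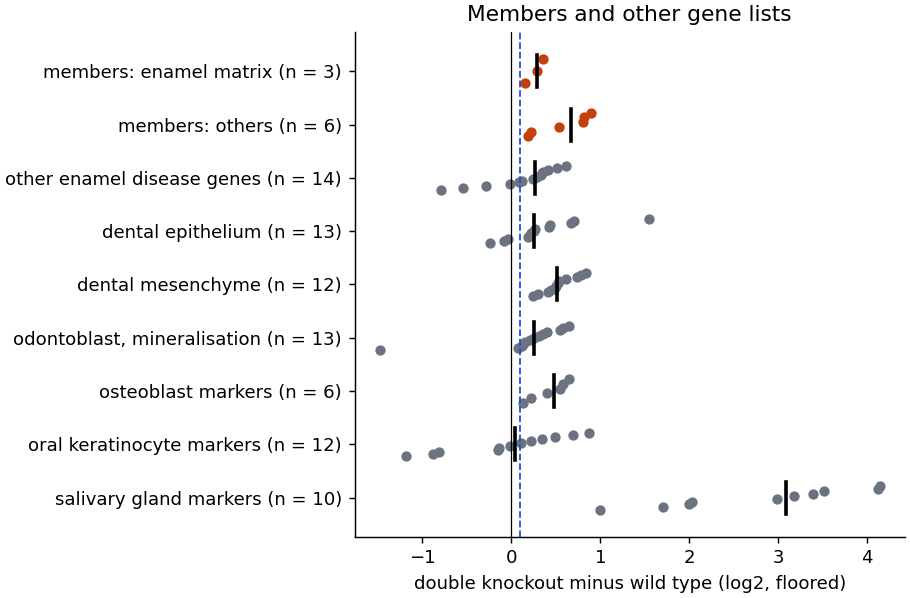
Differences (double knockout minus wild type, log2) of the measured genes of each list, with black bars at the medians and the dashed line at the median of all measured genes (0.10); a gene may be in several lists. The 6 members outside the enamel matrix have a median of 0.67, the dental mesenchyme 0.52, the oral keratinocytes 0.05 and the salivary markers 3.08.

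Markers of the neighbouring tissues were read beside the members. All 6 measured osteoblast markers were higher, against 67.0% of all measured genes. Their median was 0.47, with a range of 0.13 (Col1a1) to 0.65 (Phex) and a summed signal 0.28 higher. Sp6, Mmp20 and Dspp exceeded each of these markers, while the matrix genes were within their range. The phosphatase Alpl was 0.55 higher (10.79 against 11.34). All of the measured osteoblast markers except Ibsp are also in the odontoblast and mineralisation list, so they do not mark bone alone. Of 12 oral keratinocyte markers, all measured, 6 were higher and 6 lower, against 67.0% of all measured genes higher, with a median of 0.05. Among them Epcam was 0.87 higher, Sprr1a fell by 1.18 and Lor fell by 0.88, and the basal keratin Krt5 differed by 0.11 (11.34 against 11.45). The summed signal of the 10 skeletal muscle markers differed by -6.23 log2 units. The part of bone, epithelium, gland or muscle share in the enamel values was not tested.

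Muscle transcripts were low on the array labelled double knockout. All 10 skeletal muscle markers were past 2-fold on the lower side, against 2.73% of all measured genes. Their signals were 9.98 to 12.47 in the wild type against 3.85 to 6.33 in the double knockout. The actins Actc1 and Acta1 had 12.47 against 5.94 and 12.20 against 5.64, and the troponin Tnnt3 had 12.00 against 5.45. Myod1 decreased by 0.66 (7.14 against 6.49) and Myf5 decreased by at least 0.13 (6.31 against 4.95). The Myod1 signal of the double knockout was still above the floor, and whether its probe set covers the deleted sequence is unknown here, so this gene does not check the label. Cartilage markers were measured for 4 of 6 genes, with Col9a1 and Matn1 below the floor. Sox9, the chondrocyte factor, differed by 0.76 and the collagen Col2a1 by 0.49, while Acan differed by -0.32 and Col11a1, the brightest, by 0.12. All 9 enamel and dentin genes were above the floor on both arrays, as were the 6 osteoblast markers with a probe set.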

How the data were processed

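Total RNA of each mandible sample was extracted with Trizol, and biotin-labelled cRNA made from 6 µg was hybridised to an Affymetrix array, per the labels' protocols. The authors deposited log2 signals for 35557 probe sets; base 2 was read from their range of 1.42 to 13.35. The submitters' processing notes name MAS5 without a version or role. Background correction and normalization between arrays are not given in the sources used here, and the arrays (medians 5.48 and 5.45) were compared as deposited. Probe sets naming 1 gene (21789) were used, and a gene was represented by its brightest probe set. Values under each array's floor were raised to it, so a difference with 1 side there is a bound. Differences are double knockout minus wild type. The platform annotation gave gene names; all 9 members matched RefSeq by Entrez identifier. Calculations used Python 3.11.15, numpy 2.4.6 and pandas 2.3.3, and the code was tested on simulated data. The members, lists and motifs were chosen with earlier results of these data known. Named are all members and, of each list, the 3 largest differences, the brightest gene and some genes below the floor or without a value, save where stated. Alternatives were other scalings, floors, fold thresholds, the median over probe sets, and leaving out Amelx. The number of arrays limits the precision.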

Additional observations from a re-analysis of the deposited data

How the results depend on the processing

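No paired analysis was possible because each genotype has 1 array, and for the same reason no array could be left out. Quantile normalisation, all genes centred on a median of 0 and the oral keratinocyte markers set to 0 (added after seeing the data) left all 9 members higher, from 0.05 at the lowest to 0.87 at the highest. A floor at the 25th percentile, no floor and the median over probe sets could not move the members, which have 1 probe set each and lie above the floor on both arrays. With the floor at the 75th percentile Klk4 was not measured and the other 8 were higher. Setting the osteoblast markers to 0, a shift of 0.47 that was also added after seeing the data, left 4 members higher, with medians of -0.12 over all members, -0.18 for the enamel matrix and 0.20 for the others. In that setting Amelx was at -0.33, Odam at -0.29, Klk4 at -0.26, Ambn at -0.18 and Enam at -0.12, while Sp6 was at 0.43. At a threshold of 1.5-fold 3 members were past it as deposited and 0 with the osteoblast markers set to 0, and at 3-fold 0 were. Without genes of chromosomes X and Y, 53 measured genes were at least 2-fold higher, as with them.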

Other observations

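The letters TGATTGG, seen in the promoters of the enamel matrix and later ameloblast genes, were looked for in the genes that neighbour the members. In the dentin cluster, where Dspp lies, all 4 neighbours with a promoter in the table held the motif on the coding strand. Its first base lay 56 bases before the start in Ibsp, 23 in Mepe, 48 in 1 of the promoters of Spp1 and 103 in 1 of those of Dmp1. In the casein and saliva stretch around Odam, Amtn, Ambn and Enam, 0 of 14 neighbours with a promoter held it, among them Csn1s1, Csn2 and Prol1. Over all promoters the share was 7.82%, so 0 of 14 is near the background. The 4 genes of the dentin cluster lie side by side, so their promoters are not independent and their count cannot be weighed against that share. A gene was counted when any of its promoters held the motif, whereas the share is per promoter.

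Over the measured genes, 351 had TGATTGG on the coding strand within 100 bases before a start. Of these 73.2% were higher in the double knockout, with a median difference of 0.14. Of the 7981 measured genes with a promoter but no such match, 66.8% were higher, with a median of 0.10. The search was made after the member promoters had been seen, the 351 include the 5 members, and no test was made.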
